A study of Oryza sativa and Arabidopsis thaliana with 16 samples.

Results

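Arabidopsis thaliana roots and shoots were compared for 6 genes whose nitrogen change had been larger in roots than in shoots: scpl31, GAT1_2.1, AT1G80380, SAMTL, SUFE2 and CYP71B16. They were taken from the array annotation as every probe set paired with 1 of these genes alone, which gave 7 probe sets for the 6 genes among 22746 probe sets tested (13350 genes had a probe set of their own). The study measured gene expression with 1-colour arrays in wild-type Arabidopsis and rice, and the 8 Arabidopsis arrays were used here. They form 4 groups of 2 biological replicates: root N-treated, root KCl, shoot N-treated and shoot KCl.

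All plants were wild-type seedlings grown in hydroponics at 22 °C and 50 μE of light per second and square metre, with ammonium succinate at 0.5 mM and sucrose at 3 mM in the medium. On day 13, as their light period began, N-treated plants were exposed for 2 h to 20 mM KNO3 together with 20 mM NH4NO3, and control plants to 20 mM KCl. The treatments also differed in chloride and in total added salt, which cannot be told apart from nitrogen in this design. The salts were added to that medium, so control plants were not without nitrogen. The tissue of each sample follows its tissue label, although the protocols speak of whole seedlings.

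Nitrate and ammonium are both nutrients and signals for plants. Roots meet them first, and nitrate is known to change the transcripts of many root genes within minutes to hours, among them genes for uptake, reduction and the supply of carbon skeletons. Ammonium, taken up or made from nitrate, enters metabolism through glutamine, whose amide group is passed on by glutamine amidotransferases to other compounds. Asparagine is a further store and transport form of nitrogen. The 6 genes are not 1 pathway. GAT1_2.1 encodes a protein of the class I glutamine amidotransferase group that has been linked to nitrogen supply and to shoot branching. scpl31 belongs to the serine carboxypeptidase-like family, which holds peptidases and enzymes that transfer acyl groups. SAMTL is named as a carrier-like protein for S-adenosylmethionine, the general methyl donor. SUFE2 is a SufE-type protein, a class that activates the cysteine desulfurase of plastids, where sulfur is delivered to iron-sulfur clusters. CYP71B16 is a cytochrome P450, a class of enzymes that oxidise small molecules. AT1G80380 is given only by its locus code in the annotation, so no role is stated for it beyond its place on the photorespiration list used below.

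Values are log2 signal as deposited, on the scale of RMA. This method subtracts background, brings the arrays to a common distribution and merges a set's probes into 1 value. The deposited values still differed in distribution between arrays, as given below for the KCl roots. Changes are differences of log2 means with the standard error (SE) of a linear model (limma) over all 8 arrays, with 2 arrays in each group. A probe set was called at a Benjamini-Hochberg adjusted p under 0.05 over all probe sets tested. The 6 genes were chosen by their nitrogen changes in roots and in shoots and the difference of these, so for these genes all 3 are described here with no test. As background, limma called 11.4% of all probe sets for the change in roots, 0.637% for the change in shoots and 0.484% for the difference between the tissues. These shares rest on single arrays: the 2589 root calls became 124 and 153 without root N-treated replicates 1 and 2, 689 without either shoot KCl array, 1505 without either shoot N-treated array, and 6122 and 3820 without root KCl replicates 1 and 2. Since the root calls were 61.0% higher as deposited and 40.8% higher with each array centred on its median, no direction is given for the root response as a whole. The calls for the difference were 70.9% higher as deposited, 54.8% after centring, 39.0% with a variance trend and 23.5% without moderated variances, so their split has no settled direction either. Across probe sets, the replicates of the root KCl group were the least alike (SD of their difference 0.49, against 0.21 to 0.35 in the other 3 groups).

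The tissue labels were checked on genes of known location. All 7 shoot markers measured by symbol (RCA, LHCB4.1, LHCB4.2, PSBY, PSB27, PRK and SBPASE, all of photosynthesis) were lower in roots than in shoots, at -4.55 (SBPASE) to -5.94 (LHCB4.2) on the log2 scale, root minus shoot (limma, all called). Root markers were fewer. Of 3 measured by symbol, the expansin gene EXPA7 was at 0.69 ± 0.29 (root minus shoot, not called), XTH26 at 0.07 ± 0.10 (not called) and the nitrate transporter gene NRT2.5 was lower in roots, at -1.66 ± 0.19 (adjusted p = 0.000463). The 2 root list entries found by locus code alone, AT5G17820 and AT5G66390, were higher in roots by 2.98 ± 0.23 and 2.49 ± 0.11. Among the shoot markers, PSB27 rose in N-treated roots by 1.63 (adjusted p = 0.0171), SBPASE was lower there at -1.40 (adjusted p = 0.0188), and the other 5 were not called; the part of these in the results was not tested. In these bulk samples, fewer cells of a type and less RNA per cell cannot be told apart.

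**Figure D1:**
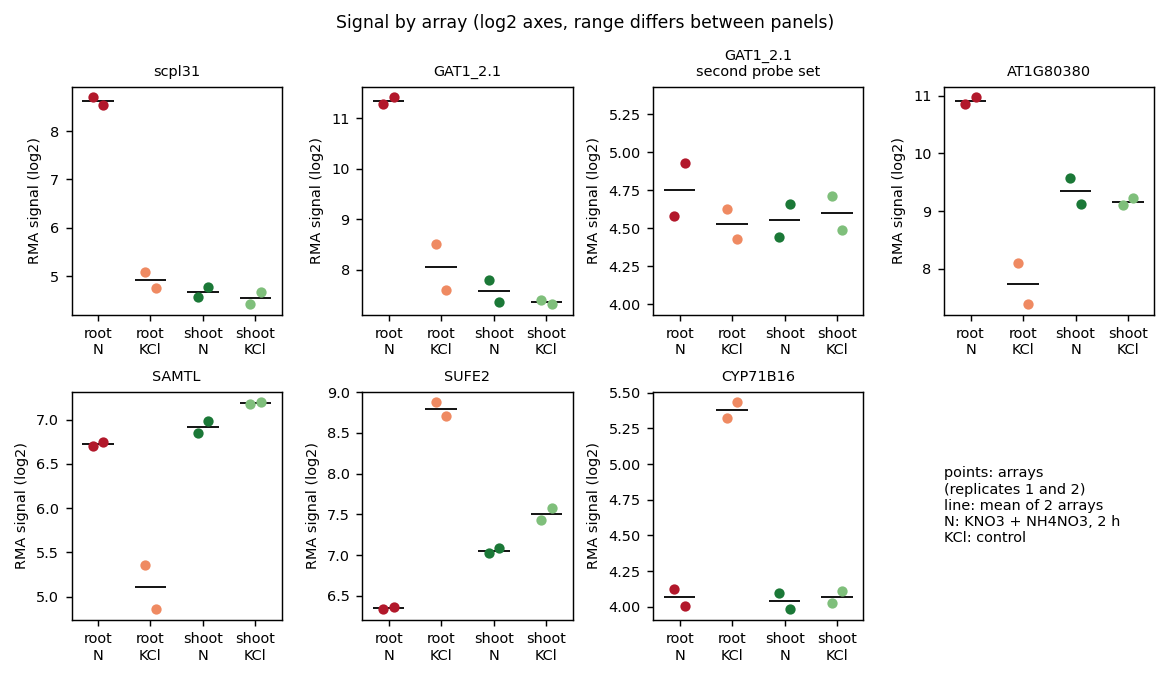
RMA log2 signal of the 7 probe sets on each of the 8 arrays, with 1 point per array and a line at the mean of the 2 arrays of a group. scpl31 and GAT1_2.1 stand high in N-treated roots alone, SAMTL and AT1G80380 stand low in KCl roots, SUFE2 and CYP71B16 stand high in KCl roots, and the second GAT1_2.1 probe set is flat between 4.43 and 4.93.

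Of the 4 genes that were higher in N-treated roots, scpl31 had the largest change. Its log2 signal was 8.70 and 8.54 in N-treated roots, against 5.08 and 4.75 in KCl roots. In shoots it was 4.57 and 4.78 with nitrogen, against 4.42 and 4.67 with KCl. Only the 2 N-treated root arrays were high, the root groups did not overlap, and the shoot groups did. The root change was 3.70 ± 0.17 (SE), a 13.0-fold higher signal, and ranked 3 by size among all 22746 probe sets. The rule used this change, so its rank is only a description. The shoot change was 0.13 ± 0.17, with a 95% interval from -0.28 to 0.54. Its mean over the 8 arrays, 5.69, passed the filter of 5 used here for dim probe sets only through the N-treated roots.

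GAT1_2.1, the glutamine amidotransferase gene, had the same order of group means. Its brighter probe set had 11.28 and 11.41 in N-treated roots, against 8.51 and 7.61 in KCl roots. In shoots it had 7.79 and 7.37 with nitrogen, against 7.40 and 7.32 with KCl. N-treated roots again stood alone and the shoot groups overlapped, while the KCl root arrays differed most (SD 0.63, the widest of any group among the 7 probe sets). The root change was 3.29 ± 0.29 (9.75-fold) and the shoot change 0.22 ± 0.29 (95% interval from -0.47 to 0.91).

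The array holds a second probe set for GAT1_2.1 that disagreed with the first. Signal there was 4.58 and 4.93 in N-treated roots, against 4.63 and 4.43 in KCl roots. In shoots it was 4.44 and 4.66 with nitrogen, against 4.71 and 4.49 with KCl. All 4 groups overlapped, and its root change was 0.22 ± 0.17. Its mean of 4.61 lay under 5, the level used here for dim probe sets, and RMA values carry no detection call. What follows for GAT1_2.1 rests on the first probe set.

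AT1G80380 had 10.86 and 10.98 in N-treated roots, against 8.10 and 7.38 in KCl roots. Its shoot values were 9.58 and 9.13 with nitrogen, against 9.11 and 9.22 with KCl. The shoot arrays thus lay between the root groups, above every KCl root array and below every N-treated one, and overlapped with each other. The root change was 3.18 ± 0.26 (9.04-fold) and the shoot change 0.19 ± 0.26 (95% interval from -0.42 to 0.79).

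SAMTL, the S-adenosylmethionine carrier-like gene, had the smallest change of the 4. Its signal was 6.70 and 6.75 in N-treated roots, against 5.36 and 4.86 in KCl roots. In shoots it was 6.85 and 6.98 with nitrogen, against 7.17 and 7.19 with KCl. KCl roots were the low group, and N-treated roots came close to the shoot arrays without reaching them. The root change was 1.62 ± 0.18 (3.07-fold). The shoot change pointed the other way, at -0.27 ± 0.18 (95% interval from -0.69 to 0.15), and the shoot groups did not overlap.

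SUFE2 and CYP71B16 were lower in N-treated roots. SUFE2, the gene for the SufE-type activator of iron-sulfur assembly, had 6.33 and 6.37 in N-treated roots, against 8.87 and 8.70 in KCl roots. In shoots it had 7.03 and 7.08 with nitrogen, against 7.43 and 7.57 with KCl. No 2 of its 4 groups overlapped, and KCl roots were highest and N-treated roots lowest. The root change was -2.44 ± 0.12, a 5.42-fold lower signal. SUFE2 was also lower in N-treated shoots, at -0.45 ± 0.12 (95% interval from -0.74 to -0.15). Its lower signal with nitrogen was thus larger in roots, and its shoot values leaned the same way. The rule used the shoot change and the interval is not adjusted for the number of probe sets, so this is a description.

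CYP71B16 had 4.12 and 4.01 in N-treated roots, against 5.32 and 5.43 in KCl roots. In shoots it had 4.1 and 3.98 with nitrogen, against 4.03 and 4.11 with KCl. Only the KCl root arrays were raised, and the other 6 arrays lay between 3.98 and 4.12. The root change was -1.31 ± 0.12 (2.48-fold lower) and the shoot change -0.03 ± 0.12 (95% interval from -0.32 to 0.26).

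CYP71B16 is the 1 gene of the 6 whose mean signal, 4.39, was under the dim level of 5. The 5 others passed that filter. Dim probe sets as a group were raised in KCl roots. The median of the 8334 dim probe sets was 4.57 and 4.62 on the KCl root arrays, against 4.39 to 4.43 on the other 6 arrays, and their median root change was -0.19. The other 14412 probe sets went the opposite way, with a median root change of 0.21 as deposited. The upper quartile of all probe sets was 6.92 and 6.83 on the KCl root arrays, against 7.16 to 7.22 on the other 6 arrays. The 4 genes that were higher in N-treated roots are among the 14412. The part of this shift in their changes was not tested. After quantile normalization, which gives every array the same distribution, the median root change of the dim probe sets was -0.03 and that of CYP71B16 was -1.27. By size its lower signal as deposited ranked 32 among the 8334. The rule used this change, so the rank only describes it. The part of the dim shift in it was not tested.

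**Figure D2:**
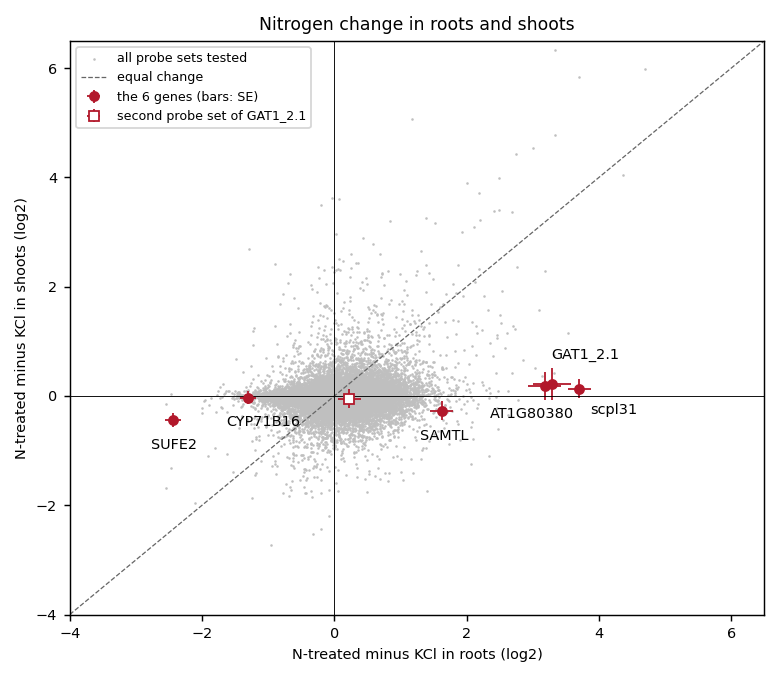
Nitrogen change in roots (x axis, log2) against that in shoots (y axis, log2) for all 22746 probe sets (grey) and for the 6 genes (red, bars are SE), with the second GAT1_2.1 probe set as an open square. The 6 genes lie between -2.44 and 3.70 in roots and between -0.45 and 0.22 in shoots, away from the dashed line of equal change.

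Between the tissues, the changes of the 6 genes thus differed by 3.57 ± 0.24 for scpl31, 3.07 ± 0.41 for GAT1_2.1, 2.99 ± 0.36 for AT1G80380, 1.89 ± 0.25 for SAMTL, -1.99 ± 0.18 for SUFE2 and -1.28 ± 0.17 for CYP71B16 (root change minus shoot change). These differences chose the genes. In roots the N-treated and KCl arrays of all 6 did not overlap, which held for 57.3% of all probe sets. In 4 genes both N-treated arrays were higher (30.0% of all probe sets) and in 2 they were lower (27.3%). In shoots the groups did not overlap for SAMTL and SUFE2, both lower with nitrogen, next to 34.4% of all probe sets in either direction and 18.7% lower. The rule used these contrasts, so the counts only describe the genes.

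The 6 genes are part of a larger set with the same property. Limma called 110 probe sets for the difference between tissues, 0.343% of all tested with a difference above 0 and 0.141% below 0, and 91 of the 110 had the larger change in roots. Of the 91, 54 were probe sets with 1 gene, 38 of them higher and 16 lower in N-treated roots. In 89 of the 91, limma called no change in shoots. It called only 0.637% of all probe sets there, so this count does not mark the 89 as confined to roots. Just inside the threshold stood AT2G40650, with a difference of 1.15 ± 0.17, and the glycosyltransferase gene GT72B1, with -2.42 ± 0.35 from opposite changes in roots (-1.23) and shoots (1.19). Just outside it stood AT5G48480, with 1.38 ± 0.20, and AT2G32760, with 1.38 ± 0.20. The size of a difference therefore does not by itself separate the genes on either side. The 110 calls depended on the scaling and on single arrays. They became 42 with arrays centred and 24 after quantile normalization. Limma called 0 probe sets without any 1 of the root N-treated or shoot KCl arrays (2547 to 3242 at an unadjusted p under 0.05), 92 and 5 without shoot N-treated replicates 1 and 2, and 3178 and 1469 without root KCl replicates 1 and 2. The place of the 6 genes past this threshold was fixed by the rule.

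The level in roots against that in shoots was described next. Averaged over both treatments, the estimate of root minus shoot is uncorrelated with those of the nitrogen changes. Its standard error comes from the same residual variance, however, and the average holds the N-treated roots that the rule used, so it is given for the 6 genes with no test. As background, limma called 35.8% of all probe sets for this difference, 19.3% higher and 16.5% lower in roots. The average was 2.23 ± 0.21 for GAT1_2.1, 2.16 ± 0.12 for scpl31, 0.67 ± 0.09 for CYP71B16 and 0.29 ± 0.09 for SUFE2, all higher in roots. For AT1G80380 it was 0.07 ± 0.18 (95% interval from -0.36 to 0.50), and for SAMTL, lower in roots, -1.13 ± 0.12.

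These averages cover unlike patterns in the 2 treatments. For scpl31, roots exceeded shoots by 3.95 ± 0.17 in N-treated plants and by 0.37 ± 0.17 in KCl plants. GAT1_2.1 behaved alike, at 3.76 ± 0.29 in N-treated and 0.70 ± 0.29 in KCl plants. In these genes the tissues were far apart with nitrogen and near each other with KCl.

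SAMTL and CYP71B16 showed the opposite arrangement. SAMTL in roots was at -0.19 ± 0.18 relative to shoots in N-treated plants and at -2.08 ± 0.18 in KCl plants. CYP71B16 was at 0.03 ± 0.12 in N-treated and 1.31 ± 0.12 in KCl plants. Here the tissues were far apart in KCl plants and close together with nitrogen.

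In AT1G80380 and SUFE2 the order of the tissues turned. AT1G80380 was at 1.56 ± 0.26 (root minus shoot) in N-treated plants and at -1.42 ± 0.26 in KCl plants, which is why its average was near 0. SUFE2 was at -0.71 ± 0.12 in N-treated and 1.29 ± 0.12 in KCl plants. These within-treatment values share arrays with the contrasts that chose the genes and are given with no test.

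**Figure D3:**
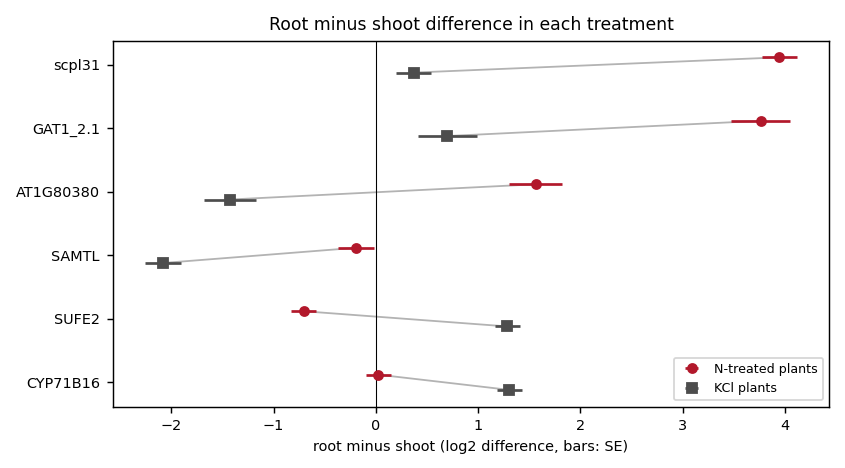
Root minus shoot difference (x axis, log2, bars are SE) of each of the 6 genes in N-treated plants (red circles) and KCl plants (dark squares). The symbols lie on opposite sides of 0 for AT1G80380 (1.56 and -1.42) and SUFE2 (-0.71 and 1.29).

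Genes with the most similar pattern over the 8 arrays were listed for each of the 6, as the 3 other probe sets with 1 gene and the highest Pearson correlation. The correlation sets shape, not size, and the 8 points share 4 groups. For scpl31 these were AT2G40600 (r = 0.988), AT3G16350 (0.987) and AT2G33845 (0.987). Their root changes were 0.57, 1.89 and 0.88, all smaller than the 3.70 of scpl31. For GAT1_2.1 they were AT1G47400 (0.989), AT5G65650 (0.989) and scpl31 itself (0.986), the first 2 with root changes of 1.70 and 1.04. For AT1G80380 they were AT1G51720 (0.981), AT2G30600 (0.975) and AT4G15940 (0.975), with root changes of 1.14, 2.03 and 0.39. AT2G30600 has another probe set, whose root change was 1.53 ± 0.26.

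For SAMTL the closest was ETFQO (0.989), named for the electron-transfer flavoprotein oxidoreductase that passes electrons from amino acid and fatty acid breakdown to the respiratory chain of mitochondria. ETFQO had 7.30 and 7.38 in N-treated roots, against 6.37 and 5.88 in KCl roots, with a root change of 1.21 ± 0.20 and a shoot change of -0.08. Like SAMTL it was low in KCl roots alone. AT1G11950 (0.987), a dim probe set, and AT5G14210 (0.987) came next. For SUFE2 they were AT1G50750 (0.984), AT1G43995 (0.978) and AT5G28210 (0.976), and for CYP71B16 AT5G34990 (0.999), AT3G27510 (0.998) and AT3G30650 (0.998). All of these 6 neighbours of SUFE2 and CYP71B16 were dim probe sets, with means from 4.17 to 4.86, and none of the 9 listed for scpl31, GAT1_2.1 and AT1G80380 was dim. The probe sets of AT1G43995 and AT5G34990 are of a type that can match several related transcripts.

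**Figure D4:**
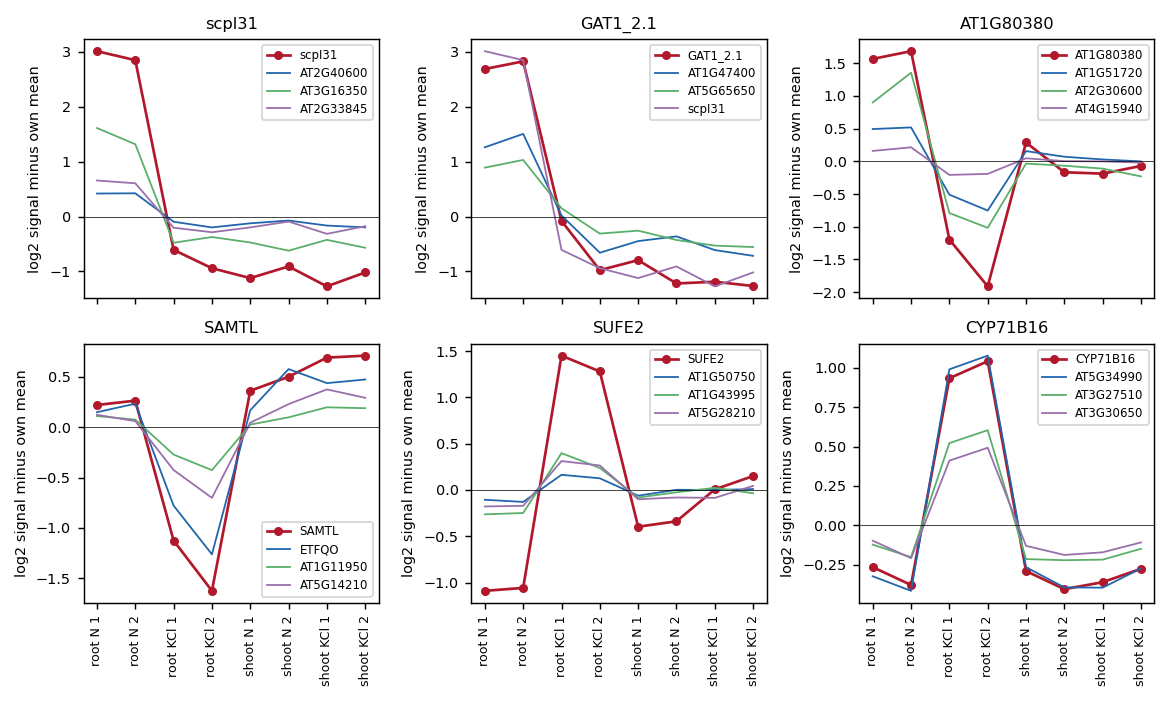
Log2 signal minus its own mean over the 8 arrays (y axis) for each of the 6 genes (thick red line) and its 3 most similar genes (thin lines), with the arrays in order on the x axis. The neighbours share the shape but mostly not the size, as for scpl31 with a root change of 3.70 against 0.57 to 1.89.

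Relatives of scpl31 and CYP71B16 were called in roots about as often as probe sets in general. A root change below 0 was found in 10819 of all 22746 probe sets and in 6332 of the 8334 dim ones. Of 28 other serine carboxypeptidase-like genes matched by symbol, 13 were dim and 18 had a root change below 0. None was called higher in roots and 3 were called lower: scpl40 at -1.32 ± 0.28 (adjusted p = 0.0325), scpl28 at -0.73 ± 0.18 (adjusted p = 0.0439) and scpl30 at -0.59 ± 0.13 (adjusted p = 0.0371). The 3 called are 10.7% of these 28, next to 11.4% of all probe sets. The median of the 28 was -0.04, next to 0.02 over all probe sets. Relatives that the annotation names otherwise or not at all are not covered. The 3 called lower were all dim and none was called after quantile normalization. No gene of the family was called without any 1 of the root N-treated or shoot arrays, and 7 and 4 were called without root KCl replicates 1 and 2. The highest of the others were scpl25 at 0.88 ± 0.35 (adjusted p = 0.137) and scpl20 at 0.63 ± 0.19 (adjusted p = 0.0802). In shoots, and for the difference between tissues, limma called 0 of the 28, next to 0.637% and 0.484% of all probe sets. At an unadjusted p under 0.05 were 1 and 3 of the 28, next to 1566 and 4305 of all 22746. Between tissues, averaged over the treatments, 8 of the 28 were called higher and 6 lower in roots. These are 50% of the 28, next to 35.8% of all probe sets (19.3% higher and 16.5% lower).

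Among 18 other CYP71B genes matched by symbol, none was called higher in roots and 2 were called lower, CYP71B34 at -1.14 ± 0.21 (adjusted p = 0.0236) and CYP71B22 at -0.58 ± 0.14 (adjusted p = 0.0431). CYP71B31 was at -0.74 ± 0.19 (adjusted p = 0.0519) and CYP71B5 at -0.69 ± 0.18 (adjusted p = 0.0552), just outside the threshold. In all, 15 of the 18 had a root change below 0, with a median of -0.39, next to 10819 of all 22746 probe sets and 6332 of the 8334 dim ones below 0. The median was -0.49 with arrays centred and -0.32 after quantile normalization, and 7 of the 18 were dim. Called genes made up 11.1%, next to 11.4% of all probe sets. None was called without either root N-treated array, 1 without any 1 of the shoot arrays, and 4 and 6 without root KCl replicates 1 and 2. In shoots, and for the difference between tissues, limma called 0 of the 18, next to 0.637% and 0.484% of all probe sets. At an unadjusted p under 0.05 were 4 of the 18 in each, next to 1566 and 4305 of all 22746. Between tissues, averaged over the treatments, 1 of the 18 was called higher and 7 lower in roots. These are 44.4% of the 18, next to 35.8% of all probe sets (19.3% higher and 16.5% lower). The average of CYP71B16 was above 0, from root minus shoot differences of 0.03 in N-treated and 1.31 in KCl plants.

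**Figure D5:**
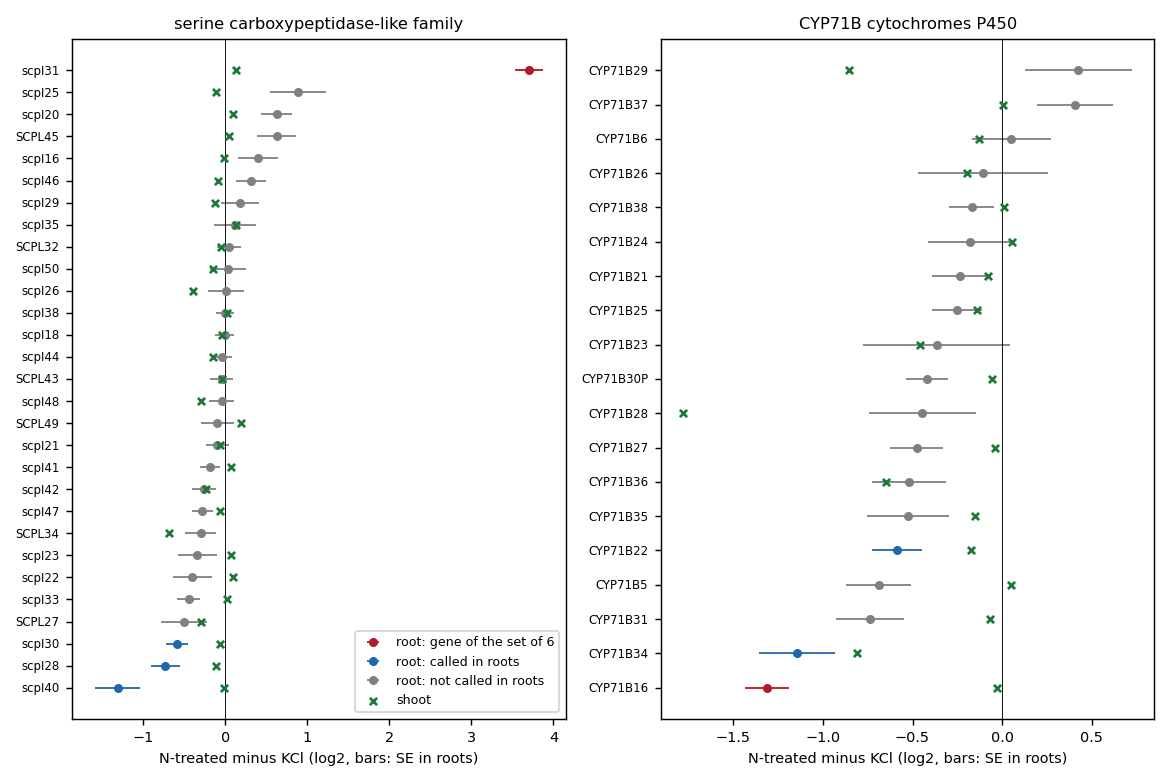
Nitrogen change (x axis, log2) in roots (circles, bars are SE) and in shoots (crosses). Shown are the serine carboxypeptidase-like genes (left) and CYP71B genes (right) matched by symbol and measured by their own probe set. scpl31 at 3.70 stands apart from the 28 relatives shown, which lie between -1.32 and 0.88. CYP71B16 at -1.31 lies at the low end of the CYP71B genes shown, of which the others reach -1.14. The rule used the root changes of scpl31 and CYP71B16, so their place among relatives is only a description.

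The other lists had few genes named by the annotation. For glutamine and asparagine use, the 2 measured genes besides GAT1_2.1 encode asparaginases, which release ammonium from asparagine. ASPGB1 had 9.47 and 10.07 in N-treated roots, against 8.15 and 8.20 in KCl roots. It had 6.94 and 7.09 in N-treated shoots, against 7.20 and 7.37 in KCl shoots. ASPGB1 thus rose in roots by 1.60 ± 0.20 (adjusted p = 0.0101), was at -0.27 ± 0.20 in shoots and was not called for the difference between tissues (1.86 ± 0.29, adjusted p = 0.0551). The root call of ASPGB1 held when any 1 array was left out (adjusted p 0.0141 to 0.0473) and was lost with array weights (adjusted p = 0.0688) or root arrays alone (adjusted p = 0.0947). ASPGA1 was at -0.04 ± 0.23 in roots (adjusted p = 0.921).

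For iron-sulfur assembly, beside SUFE2, the scaffold gene ISU1 was at -0.15 ± 0.17 in roots and the plastid carrier protein gene HCF101 at -0.24 ± 0.20, neither of them called. For S-adenosylmethionine, beside SAMTL, CBL, the gene for cystathionine beta-lyase of methionine synthesis, was at 0.44 ± 0.22 (not called). HPR, the hydroxypyruvate reductase gene and the 1 photorespiration gene named, was at -0.38 ± 0.16 in roots (not called) and lower in roots than in shoots, at -5.73 ± 0.11 (adjusted p = 7.5e-07). That list also holds AT1G80380 by its locus code, with the root change of 3.18 given above, left out here as 1 of the 6 genes. The 4 further entries of that list found by locus code alone ranged from -0.12 to 0.35 in roots. Of these 4, 1 was below 0 and none was called.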

How the data were processed

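Total RNA was labelled with biotin and hybridised to 1-colour arrays, per the labels' protocols. The deposited log2 values were made with RMA, per the submitters' processing notes; its version is not given in the sources used here. They were used with no further scaling. Of 22810 Arabidopsis probe sets, 64 control sets were left out. Gene names came from GEO's table for the array: 13513 had 1 gene, 503 several and 8730 were unnamed there. Rice arrays were not used.

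All 8 Arabidopsis arrays were fitted with limma 3.58.1 in R 4.3.3 (4 group means, 4 residual degrees of freedom, moderated variances, two-sided p, Benjamini-Hochberg adjustment over 22746 probe sets). The script was tested on simulated data. Precision is limited by the number of arrays.

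Named genes were the 6 genes, the 3 nearest to each by correlation, probe sets at the threshold and, from each list, up to 4 called genes and 2 others. The lists were serine carboxypeptidase-like, CYP71B, photorespiration, glutamine and asparagine use, iron-sulfur assembly, S-adenosylmethionine, and root and shoot markers, matched by symbol. For GAT1_2.1 the probe set of higher mean was used. The genes and lists were chosen with earlier results of these data known. The averaged tissue difference was fitted as a test, but is given for the 6 genes as a description, since it shares arrays and variance with the rule. Alternatives covered scaling, a dim filter, variance models, array weights, 1 tissue alone, a replicate block and leaving out each array.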

Additional observations from a re-analysis of the deposited data

Results flagged for a closer look

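The response differed between roots and shoots, as root change minus shoot change, by 3.57 for scpl31, 3.07 for GAT1_2.1, 2.99 for AT1G80380, 1.89 for SAMTL, -1.99 for SUFE2 and -1.28 for CYP71B16. These 6 genes were chosen for that difference, so it is no separate evidence. Of the genes listed for a similar pattern, AT3G16350 had a difference of 1.94, AT2G30600 of 1.91 and AT5G34990 of -1.41. They were picked by their likeness to scpl31, AT1G80380 and CYP71B16, so their differences follow in part from that choice and are a description. Groups of 2 arrays allow no search for single outlying arrays.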

How the results depend on the processing

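The root changes of the 6 genes kept their sign under every alternative run, as did their differences between tissues. The rule used both, so this is a description and no separate evidence. A dim filter, array weights, 1 tissue alone or a replicate block left these estimates as they were, where the gene was fitted. The difference for SUFE2 was -2.10 with array medians centred and -2.22 after quantile normalization, and that for CYP71B16 -1.39 with centring. Leaving out 1 array at a time, the differences ranged from 3.41 to 3.74 for scpl31, 2.62 to 3.51 for GAT1_2.1, 2.63 to 3.34 for AT1G80380, 1.64 to 2.14 for SAMTL, -2.08 to -1.91 for SUFE2 and -1.34 to -1.22 for CYP71B16. The averaged root minus shoot difference of SUFE2 was 0.28 with centring. It was 0.29 with dim probe sets left out, a variance trend, array weights or a replicate block. Its full range was 0.28 to 0.36 over the settings that kept all arrays, and 0.25 to 0.33 without 1 array.

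Root calls numbered 2589 as deposited, 2698 with centring, 1212 after quantile normalization, 3375 with a variance trend and 1434 without dim probe sets. They numbered 1099 without moderated variances, 270 with array weights and 1389 with a replicate block. With root arrays alone limma called 0, with 4901 at an unadjusted p under 0.05. Shoot calls numbered 145, 146 with centring or a variance trend, 119 after quantile normalization and 196 without dim probe sets. They numbered 0 without moderated variances (1334 unadjusted), 406 with array weights, 62 with shoot arrays alone and 91 with the block. Calls for the difference numbered 110, 42 with centring, 24 after quantile normalization and 80 without dim probe sets. They numbered 34 without moderated variances, 313 with a variance trend, 27 with array weights and 0 with the block (3835 unadjusted). Without 1 array they ranged from 124 to 6122 in roots, 5 to 183 in shoots, 0 (2547 to 3242 unadjusted) to 3178 for the difference and 6084 to 10174 between tissues. The 3 called serine carboxypeptidase-like genes became 0 after quantile normalization, without dim probe sets or moderated variances, with array weights or root arrays alone, 1 with the block and 0 to 7 without 1 array. The 2 called CYP71B genes became 5 with centring, 1 without dim probe sets, 4 with a variance trend, 0 without moderated variances, with array weights or root arrays alone, 1 with the block and 0 to 6 without 1 array. The serine carboxypeptidase-like calls stayed at 3 with centring or a variance trend, and the CYP71B calls stayed at 2 after quantile normalization. Deviations of same-numbered replicates correlated at 0.39 between N-treated roots and N-treated shoots, but at -0.42 to 0.00 between the other groups, so the numbers are not taken as pairs. A block with the KCl numbers crossed, added after seeing the data, gave 3331 root calls, 126 shoot calls, 37 calls for the difference, 7 serine carboxypeptidase-like and 4 CYP71B calls. Where a group keeps 1 array, that array is assumed to vary like the others. The cause of these shifts was not tested.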
